A study of Homo sapiens with 12 samples.

Results

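The HOX genes were taken as every row of the count table whose gene name is HOX followed by a cluster letter from A to D and a number, which gave 39 genes out of 60666, and counts and sums over HOX genes run over 38 of them. Of the 38, 10 lie in the HOXA cluster on chromosome 7, 10 in HOXB on chromosome 17, 9 in HOXC on chromosome 12 and 9 in HOXD on chromosome 2. Their RNA was measured in HT1376 cells, an established line from a human bladder carcinoma. CRISPR/Cas9 control cells (CT, labelled WT), which carry a guide against luciferase, were compared with cells in which FOXP3, best known as the transcription factor of regulatory T cells, had been cut in exon 2 (FOXP3 KO), each either untreated or stimulated with interferon-γ (IFNγ, 100 ng/mL for 48 hours per the study's methods). Each of the 4 groups had 3 libraries, numbered 11, 12 and 13, and total RNA was depleted of ribosomal RNA before sequencing. Both lines were single-cell clones, so the effect of the knockout and differences between clones cannot be told apart, and nothing in the labels says that libraries of a group came from separate cultures, so p-values measure the spread between these libraries only.

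HOX genes encode homeodomain transcription factors that give cells their position along the head-to-tail axis of the embryo. Within a cluster the genes are ordered as they are used, from the anterior paralogue groups at the 3′ end to the posterior groups at the 5′ end, and genes of one group in different clusters are close relatives. HOX proteins gain DNA specificity by pairing with TALE homeodomain cofactors of the PBX and MEIS families, Polycomb complexes keep unused HOX genes silent, and adult epithelia, the bladder among them, retain a tissue-typical HOX pattern that tumours often alter.

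Depth ranged from 4490684 to 39270042 counts per library (median 15551202), and the shallowest was the IFNγ-treated CT library numbered 12. FOXP3 itself had 2 counts over all CT libraries and 6 over all FOXP3 KO libraries, with at most 3 in a library, so its counts could not check the labels. Of 18 epithelial and urothelial markers, 16 or 17 had a count in each group, and their summed level lay between 4476 and 5755 CPM in every library of both lines. Single markers differed, since 3 of the 14 tested were higher and 5 lower in untreated FOXP3 KO (14.0% and 18.2% over all genes), among them PPARG (log2 fold change 1.45, SE 0.16), KRT7 (0.95, SE 0.18), EPCAM (-1.92, SE 0.15) and KRT13 (-2.54, SE 0.20), and the part of this in the HOX values was not tested. Levels below are CPM (counts scaled to a common library total) after TMM scaling over the 12 libraries, given as mean ± SD of 3 libraries. They are divided by the exon length in kilobases wherever genes are compared with each other.

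Of the 38 HOX genes, 12 had no count in any library. They were HOXA7, HOXA9, HOXA10, HOXA11, HOXB1, HOXB8, HOXD8, HOXD9, HOXD10, HOXD11, HOXD12 and HOXD13. A total of 3 counts over the 12 libraries would correspond to 0.0145 CPM, which is the level that such a count of 0 allows. HOXC was the only cluster of the 4 in which every gene had a count, whereas 6 of the 9 HOXD genes had none. By position, 1 of 7 anterior genes (paralogue groups 1 to 3), 3 of 15 central genes (groups 4 to 8) and 8 of 16 posterior genes (groups 9 to 13) had no count. HOXA13, which with HOXD13 patterns the embryonic urogenital tract, had 14 counts in all, and HOXD13 had 0. A further 9 genes had between 1 and 9 counts over the 12 libraries, 17 had at least 10, and 4 (HOXB7, HOXC6, HOXC8 and HOXC11) had a count in every library.

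Promoter sequences were matched for 20 of the 38 genes (26 distinct windows, RefSeq, GRCh38.p14). Each window runs from 250 bases before to 50 bases after an annotated start site. Windows of the other 18, HOXA5, HOXB2 to HOXB9, HOXB13, HOXC6, HOXC8 to HOXC13 and HOXD9, were not analysed here, and these include all 7 genes that differ between the lines below. The windows were searched on both strands for the forkhead core TGTTTA, an element that FOXP3 and other forkhead proteins recognise. They were also searched for the HOX-PBX element TGATNNAT, at which HOX proteins pair with PBX. The study's FOXP3 motifs also allow CAAACA, which was not searched for and is not in capitals below. The forkhead core was found in 4 HOX windows (3 of HOXA3 and the one that HOXC4 and HOXC5 share) and in 12.3% of the 35116 promoters in the table. The HOX-PBX element was found in 3 HOX windows (HOXA2, HOXB1 and HOXD11) and in 7.40% of promoters. CpG dinucleotides were more frequent in the HOX windows (median 22.5, range 0 to 44) than in all promoters (median 14). The 4 windows below show where these elements stand, with the element in capitals. That of HOXC4 and HOXC5 is the only HOXC window searched and holds a forkhead core, that of HOXA3 carries the forkhead core at its most upstream start, and those of HOXA2 and HOXB1 carry the HOX-PBX element. In the order printed they lie at chr12:54016638-54016937 on the plus strand, chr7:27152534-27152833, chr7:27102634-27102933 and chr17:48530962-48531261 on the minus strand, and the first base of the element lies 194, 132, 114 and 125 bases before the start site. A match of letters is a description and not evidence of binding.
HOXC4 and HOXC5: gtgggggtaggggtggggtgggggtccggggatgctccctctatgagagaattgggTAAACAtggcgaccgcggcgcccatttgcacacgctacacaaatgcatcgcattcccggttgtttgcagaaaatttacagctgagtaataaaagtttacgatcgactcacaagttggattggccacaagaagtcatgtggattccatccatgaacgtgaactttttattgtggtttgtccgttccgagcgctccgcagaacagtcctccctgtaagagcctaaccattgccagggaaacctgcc
HOXA3: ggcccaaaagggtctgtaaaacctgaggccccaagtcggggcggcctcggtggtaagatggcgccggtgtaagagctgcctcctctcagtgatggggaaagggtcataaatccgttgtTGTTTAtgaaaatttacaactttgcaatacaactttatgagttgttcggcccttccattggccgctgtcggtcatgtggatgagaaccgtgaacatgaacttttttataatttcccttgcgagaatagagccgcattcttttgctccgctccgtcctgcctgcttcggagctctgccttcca
HOXA2: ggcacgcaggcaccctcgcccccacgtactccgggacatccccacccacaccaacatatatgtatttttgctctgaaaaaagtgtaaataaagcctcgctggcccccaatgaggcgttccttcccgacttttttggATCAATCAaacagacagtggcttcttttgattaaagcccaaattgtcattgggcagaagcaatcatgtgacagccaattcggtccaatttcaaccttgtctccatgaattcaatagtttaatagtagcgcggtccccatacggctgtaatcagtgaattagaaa
HOXB1: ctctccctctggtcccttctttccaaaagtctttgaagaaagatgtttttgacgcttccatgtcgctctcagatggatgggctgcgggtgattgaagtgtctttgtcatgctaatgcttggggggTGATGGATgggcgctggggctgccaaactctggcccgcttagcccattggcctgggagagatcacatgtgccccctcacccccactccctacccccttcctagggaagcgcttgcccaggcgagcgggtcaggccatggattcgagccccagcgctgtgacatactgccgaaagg
HOXC4 had 2 counts in the CT libraries and 13 in FOXP3 KO, HOXC5 had 0 and 4, HOXA3 had 8 and 15, HOXA2 had 0 and 1, and HOXB1 had none.

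The genes that made up the HOX transcripts differed between the lines. Summed over the 38 genes, the level was 8.30 ± 1.10 CPM in untreated CT, 9.23 ± 1.52 in CT with IFNγ, 11.3 ± 2.1 in untreated FOXP3 KO and 12.0 ± 1.8 in FOXP3 KO with IFNγ, and the libraries of the lines overlapped under both treatments. In untreated CT cells HOXC held 46.7 ± 4.1% of that sum and HOXB 41.6 ± 5.5%, whereas in untreated FOXP3 KO cells HOXC held 68.6 ± 18.2% and HOXB 14.2 ± 7.6%. HOXB summed to 3.46 ± 0.60 CPM in untreated CT and 1.501 ± 0.489 CPM in untreated FOXP3 KO, and HOXD stayed at or below 0.321 CPM in every library. By position, the anterior genes summed to 0.340 ± 0.117 CPM in untreated CT and 0.493 ± 0.124 CPM in untreated FOXP3 KO, the central genes to 6.55 ± 1.16 and 3.69 ± 1.19 CPM, and the posterior genes to 1.42 ± 0.30 and 7.11 ± 3.06 CPM. With IFNγ the posterior genes summed to 1.67 ± 0.63 CPM in CT and 7.15 ± 2.08 CPM in FOXP3 KO. Of the posterior sums HOXC13 alone held 0.733 ± 0.124 CPM in untreated CT and 6.25 ± 2.86 CPM in untreated FOXP3 KO. With IFNγ it held 0.365 ± 0.453 CPM in CT and 6.32 ± 2.12 CPM in FOXP3 KO. The difference of the posterior sums thus rests largely on this gene. Of the other posterior genes, HOXC10 was higher and HOXB13 lower in FOXP3 KO. These sums are descriptions without a test, and they and the shares cover the 38 genes only. The gene of the 39 that is left out had counts too. Shares of all HOX counts would therefore be lower, more so in CT than in FOXP3 KO. HOXB7 alone made up 28.7 ± 6.3% of the sum in untreated CT and 8.98 ± 6.95% in untreated FOXP3 KO, and HOXC13 made up 8.81 ± 0.63% and 53.3 ± 18.1%.

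**Figure D1:**
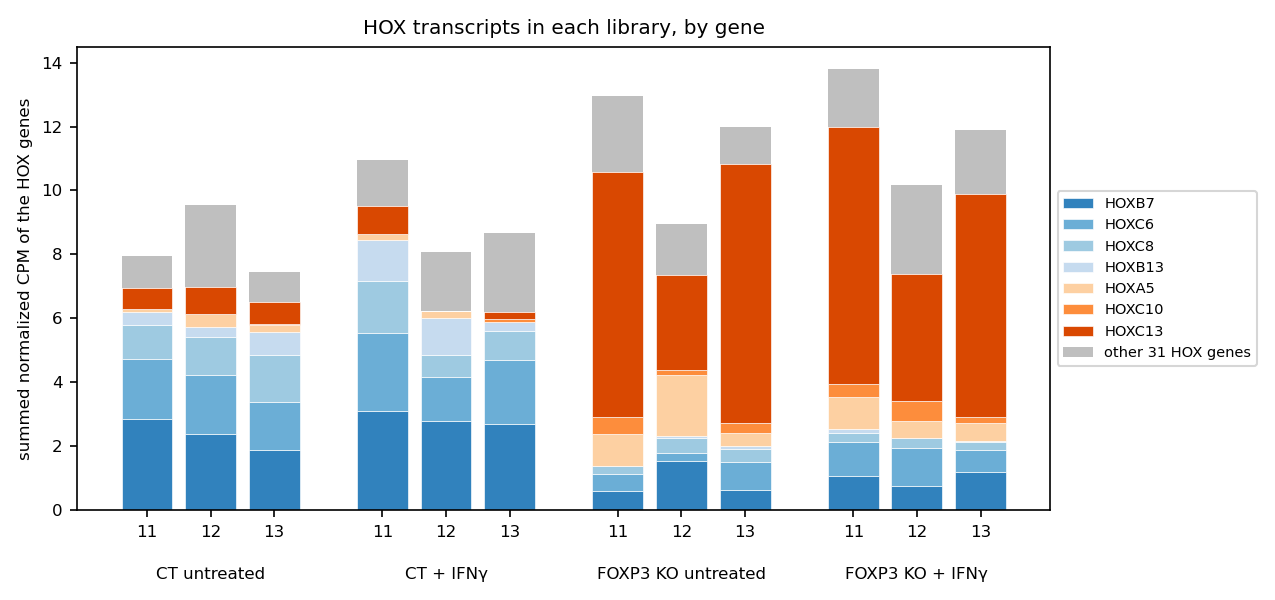
Stacked bars give the summed normalized CPM of the 38 HOX genes in each of the 12 libraries (x axis, libraries 11, 12 and 13 of each group), split into the 7 genes that differed between the lines and the other 31. HOXC13 is the tallest single-gene segment in every FOXP3 KO library and HOXB7 in every CT library.

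Among the 38 genes, HOXB7 led per kilobase of exon in untreated CT cells at 1.56 ± 0.33 CPM per kb. HOXC8 (0.509 ± 0.083) and HOXC6 (0.503 ± 0.054) followed, did not differ beyond their spread and stood below HOXB7 in every library. HOXC13 (0.311 ± 0.053) and HOXA6 (0.288 ± 0.126) came after them and overlapped, as did HOXA6 and HOXB13 (0.160 ± 0.072). In untreated FOXP3 KO cells the order began with HOXC13 at 2.65 ± 1.21 CPM per kb, followed by HOXA5 (0.634 ± 0.432) and HOXB7 (0.605 ± 0.344). The libraries of HOXC13 ranged from 1.25 to 3.45 and lay above the highest library of HOXA5 (1.09), while HOXA5 and HOXB7 overlapped. With IFNγ the leading gene of the 38 stayed HOXB7 in CT (1.88 ± 0.15) and HOXC13 in FOXP3 KO (2.68 ± 0.90).

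**Figure D2:**
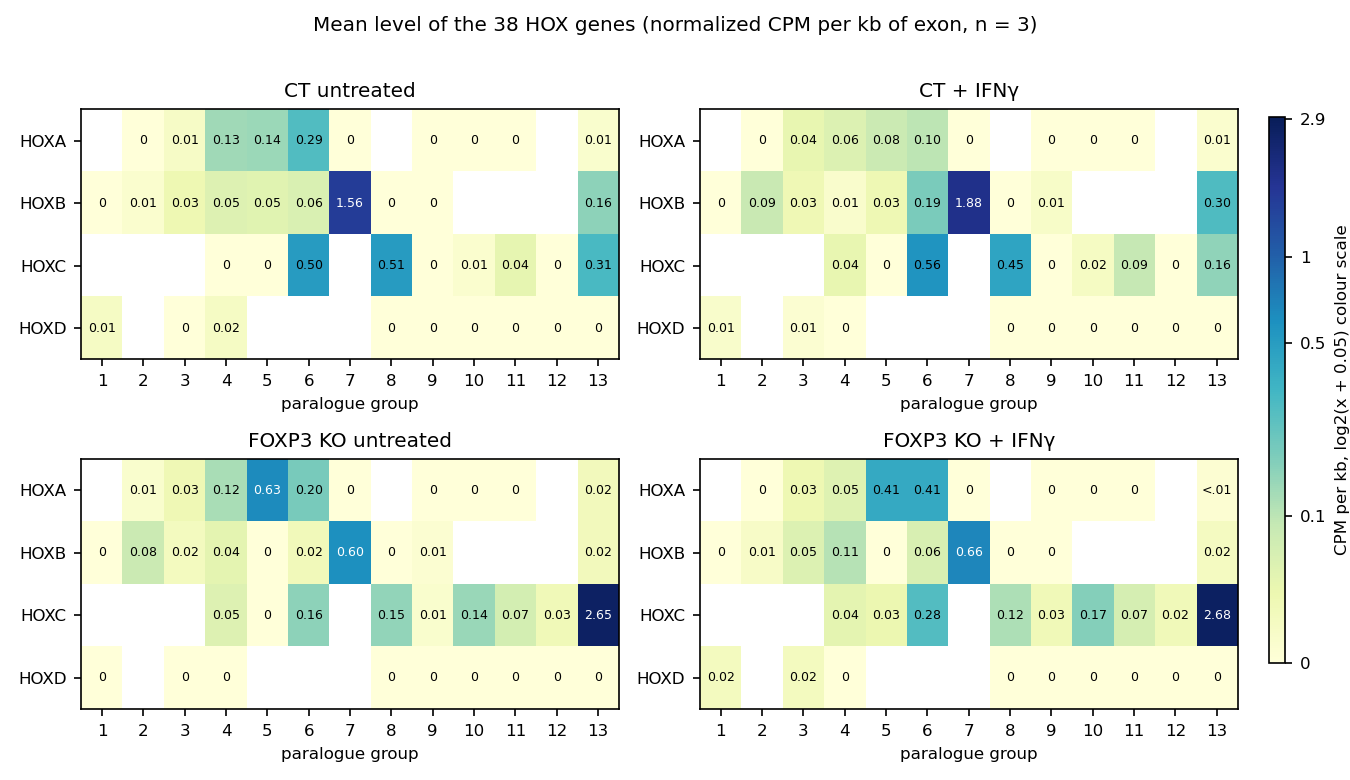
Each panel is a group, rows are the HOX clusters, columns the paralogue groups, and the number and colour of a cell give the mean CPM per kb of exon over 3 libraries (colour on a log2 scale after adding 0.05, 0 meaning no count in the group, blank cells having no value). HOXB7 is darkest in both CT panels and HOXC13 in both FOXP3 KO panels, while the HOXD row is near 0 throughout.

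The comparison of FOXP3 KO with CT asked which HOX genes differ between the lines. Without IFNγ, 15 HOX genes had at least 10 counts over the 6 libraries and could be tested, and 7 passed an adjusted p of 0.05 in edgeR's quasi-likelihood test. HOXC13, HOXC10 and HOXA5 were higher in FOXP3 KO and HOXB7, HOXC6, HOXC8 and HOXB13 were lower. Among all 25320 genes tested, 14.0% were called higher and 18.2% lower, against 3 and 4 of the 15 HOX genes. With IFNγ, 14 HOX genes could be tested and 3 passed: HOXC13 was higher and HOXB7 and HOXB13 were lower in FOXP3 KO, and all 3 had also passed without IFNγ. The background there was 13.2% higher and 15.7% lower of 24388 genes, so the share of HOX genes called under IFNγ was near or below the background in the higher direction and near it in the lower.

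HOXC13, a posterior gene known for switching on hair and nail keratins, rose most firmly. Its untreated CT libraries stood at 0.642, 0.874 and 0.683 CPM (libraries 11, 12 and 13) and its untreated FOXP3 KO libraries at 7.66, 2.96 and 8.12 CPM. With IFNγ the CT libraries read 0.873, 0 and 0.224 CPM (3 counts in the second, the shallowest of all, would be 0.668 CPM) and the FOXP3 KO libraries 8.04, 3.96 and 6.97 CPM. Every FOXP3 KO library was above every CT library, and library 12 was the lowest of both FOXP3 KO groups. The log2 fold change was 3.13 (SE 0.42, adjusted p = 0.000206, edgeR quasi-likelihood test) without IFNγ and 3.99 (SE 0.60, adjusted p = 0.000492) with it. HOXC13 passed in each alternative setting and without any single library, with log2 fold changes of 2.95 to 3.48 untreated and 3.52 to 5.18 with IFNγ when a library was left out. HOXC13-AS overlaps the 5′ end of HOXC13 on the opposite strand, and since the strand setting of the counting is not given in the sources used here, reads in the overlap cannot be assigned with certainty.

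HOXC10, a posterior gene of the lumbar spinal cord and hindlimb region, had 2 counts in the untreated CT libraries and 20 in the untreated FOXP3 KO libraries. Its levels were 0, 0 and 0.0526 CPM in CT and 0.559, 0.179 and 0.288 CPM in FOXP3 KO, with no overlap. The log2 fold change was 3.48 (SE 1.15, adjusted p = 0.0399, edgeR quasi-likelihood test), and the adjusted p was 0.0788 with the replicate number as a block and 0.0577 with DESeq2. Without CT library 13, which held the only untreated CT counts, the log2 fold change was 5.57. With IFNγ the libraries of the lines again did not overlap (0, 0 and 0.112 CPM against 0.402, 0.642 and 0.194 CPM), but the log2 fold change of 2.71 (SE 1.25) had an adjusted p of 0.132, and it was 5.51 without CT library 13.

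HOXA5, a central gene needed for lung and airway formation, was at 0.117, 0.397 and 0.210 CPM in untreated CT and 0.989, 1.88 and 0.403 CPM in untreated FOXP3 KO. The groups came close, since the lowest FOXP3 KO library (0.403) lay just above the highest CT library (0.397). The log2 fold change was 2.19 (SE 0.72, adjusted p = 0.0393, edgeR quasi-likelihood test). With IFNγ HOXA5 stood at 0.142 ± 0.124 CPM in CT and 0.697 ± 0.267 CPM in FOXP3 KO, with a log2 fold change of 2.68 (SE 1.06) and an adjusted p of 0.0831, and it was 1.77 without CT library 13 and 3.56 without CT library 11.

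HOXB7, a central gene active in the developing ureteric bud and kidney ducts, was lower in FOXP3 KO with and without IFNγ. It stood at 2.86, 2.38 and 1.87 CPM in untreated CT and 0.602, 1.52 and 0.634 CPM in untreated FOXP3 KO, and at 3.10, 2.77 and 2.68 CPM against 1.07, 0.748 and 1.20 CPM with IFNγ. The lines did not overlap under either treatment. HOXB7 fell by 1.41 on the log2 scale without IFNγ (SE 0.45, adjusted p = 0.0332, edgeR quasi-likelihood test) and by 1.42 with it (SE 0.40, adjusted p = 0.0209). HOXB8, HOXB9 and HOXB7 overlap on the same strand, and HOXB8 had no count while HOXB9 had 2.

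HOXC6 and HOXC8 are neighbouring central genes of the thoracic region and share transcript territory on the plus strand. Untreated, HOXC6 was at 1.87, 1.83 and 1.52 CPM in CT and 0.516, 0.269 and 0.864 CPM in FOXP3 KO. HOXC8 was at 1.05, 1.19 and 1.45 CPM in CT and 0.258, 0.448 and 0.403 CPM in FOXP3 KO. Both were below CT in every FOXP3 KO library, and they fell by 1.59 (SE 0.47, adjusted p = 0.0233) and 1.76 (SE 0.49, adjusted p = 0.0180) on the log2 scale in edgeR's quasi-likelihood test. With IFNγ HOXC6 had a log2 fold change of -1.01 (SE 0.47, adjusted p = 0.133) and HOXC8 of -1.92 (SE 0.66, adjusted p = 0.0505), again with every FOXP3 KO library below every CT library.

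HOXB13, a posterior gene of the hindgut and prostate, is the one called posterior gene that was lower in FOXP3 KO. It had 39 counts in untreated CT and 3 in untreated FOXP3 KO, at 0.409, 0.318 and 0.736 CPM against 0, 0.0896 and 0.115 CPM. With IFNγ it stood at 1.26, 1.15 and 0.279 CPM in CT and at 0.134, 0 and 0.0324 CPM in FOXP3 KO. The lines did not overlap under either treatment. HOXB13 fell by 2.92 on the log2 scale without IFNγ (SE 0.98, adjusted p = 0.0427, edgeR quasi-likelihood test) and by 3.70 with it (SE 1.12, adjusted p = 0.0295, and a log2 fold change of -4.74 without FOXP3 KO library 11). The untreated adjusted p was 0.0523 with the replicate number as a block and 0.0584 with DESeq2, and without any single library it did not pass untreated (0.0529 to 0.198, log2 fold changes of -3.72 to -2.17).

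**Figure D3:**
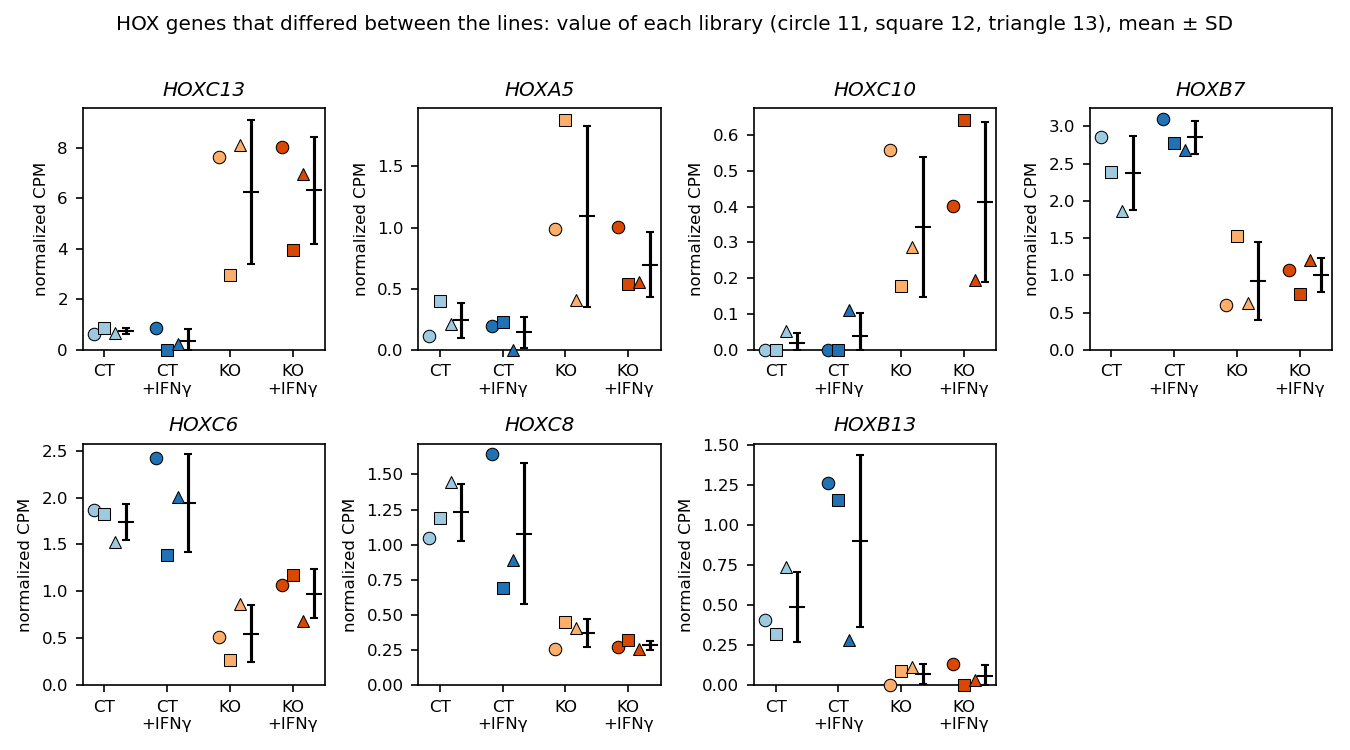
Points are the normalized CPM of single libraries (circle 11, square 12, triangle 13) in the 4 groups, with the mean ± SD of 3 libraries beside them, for the 7 HOX genes that differed between the untreated lines. HOXC13, HOXA5 and HOXC10 are higher and the other 4 lower in every untreated FOXP3 KO library than in every untreated CT library.

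Several of these calls moved with single libraries. Untreated, between 1 and 4 of the HOX genes passed when a library was left out: 1 (HOXC13) without FOXP3 KO library 11 or without CT library 13, the deepest of the study, 4 without FOXP3 KO library 12 or 13, 2 without CT library 11 and 3 without CT library 12. The share of all genes called in either direction also fell, from 32.1% to between 24.6% (without CT library 13) and 31.1% (without FOXP3 KO library 12). HOXC8 failed without FOXP3 KO library 11 (adjusted p = 0.0783, edgeR quasi-likelihood test) or CT library 13 (0.0922). HOXA5 failed without FOXP3 KO library 11 (0.0851) or 12 (0.138) or CT library 11 (0.106) or 13 (0.125). HOXC10 was under the 10 counts needed for a test without FOXP3 KO library 11 and failed without FOXP3 KO library 13 (0.0616) or CT library 11 (0.0898), 12 (0.0807) or 13 (0.0565). HOXB7 passed only without FOXP3 KO library 12 and otherwise lay between 0.0602 and 0.14, and HOXC6 passed only without FOXP3 KO library 13 and otherwise lay between 0.0561 and 0.0822. Under IFNγ between 1 and 3 HOX genes passed, 2 without any of the FOXP3 KO libraries in turn or without CT library 13, 1 (HOXC13) without CT library 11 and 3 without CT library 12, and the share of all genes called went from 28.9% to between 21.7% and 28.3%. HOXB7 then failed without FOXP3 KO library 11 (0.06) or CT library 11 (0.0645) or 13 (0.0593), and HOXB13 without FOXP3 KO library 12 (0.058) or 13 (0.105) or CT library 11 (0.115) or 12 (0.0634), while HOXC8 passed without CT library 12 (0.0426). No fold change of the 7 genes between the lines changed sign in any of these fits.

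Of the tested HOX genes that did not pass in either comparison of the lines, HOXB2, named here after its values were seen, came nearest, at 0, 0 and 0.0526 CPM in untreated CT and 0.344, 0.0896 and 0.173 CPM in untreated FOXP3 KO. Its log2 fold change was 2.77 (SE 1.25, adjusted p = 0.115; 4.86 without CT library 13) without IFNγ and -2.09 (SE 1.48, adjusted p = 0.336) with IFNγ in edgeR's quasi-likelihood test. HOXB4, also chosen so, had 1 count in CT with IFNγ and 12 in FOXP3 KO with IFNγ (log2 fold change 2.65, SE 1.36, adjusted p = 0.176, and 4.68 without CT library 13). HOXA3, HOXA4, HOXA6, HOXA13, HOXB3, HOXB6 and HOXC11 had adjusted p-values between 0.243 and 0.936 wherever they were tested. Over all 6 libraries of a line, HOXA6 had 26 counts in CT and 41 in FOXP3 KO, HOXB3 had 23 and 25, and HOXC11 had 17 and 25, ratios of FOXP3 KO to CT per TMM-scaled library size of 1.48 (95% interval 0.884 to 2.52), 1.02 (0.555 to 1.88) and 1.38 (0.716 to 2.72). These intervals, exact and for counting error only, include 1. HOXB6 had 26 and 13 counts, a ratio of 0.469 with an interval of 0.221 to 0.946, which leaves out 1. IFNγ-treated CT library 13 alone held 17 of the 26 CT counts, so this ratio and interval rest largely on that library.

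**Figure D4:**
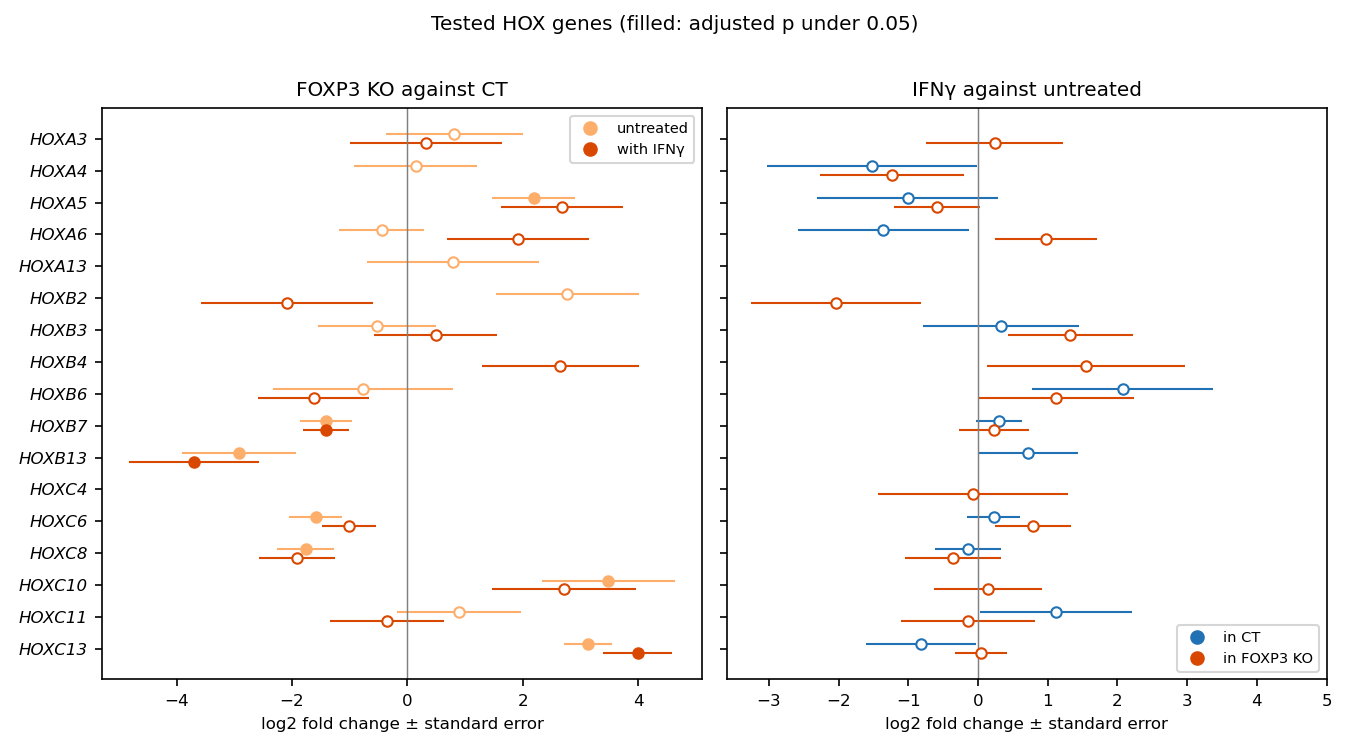
Points are log2 fold changes with their standard errors from edgeR's quasi-likelihood test for the tested HOX genes, left for FOXP3 KO against CT and right for IFNγ against untreated, with filled points past an adjusted p of 0.05. On the left 7 genes are filled without IFNγ and 3 with IFNγ, and on the right none is.

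Along the HOXC cluster, 7 of the 9 genes had more counts in FOXP3 KO than in CT, and HOXC8 and HOXC6, in the middle of the cluster, had fewer. Over the 6 libraries of each line, HOXC13 had 61 counts in CT and 724 in FOXP3 KO, HOXC12 had 0 and 8, HOXC11 had 17 and 25, HOXC10 had 4 and 38 and HOXC9 had 0 and 4. Downstream of them, HOXC8 had 124 and 33, HOXC6 had 180 and 78, HOXC5 had 0 and 4 and HOXC4 had 2 and 13. Per TMM-scaled library size, with CT set to 3 counts over its 6 libraries, HOXC12 was 2.502-fold and HOXC9 1.25-fold higher in FOXP3 KO. This floor takes the FOXP3 KO counts of 8 and 4 as exact, so these ratios are not lower limits. HOXC4 was 6.10-fold higher with a counting interval of 1.38 to 55.7. In HOXB the reverse was seen at HOXB5, with 8 counts in CT and 0 in FOXP3 KO, 2.84-fold higher in CT with FOXP3 KO set to the same floor. The remaining sparse genes were HOXA2 (0 and 1), HOXB9 (1 and 1), HOXD1 (3 and 1), HOXD3 (1 and 2) and HOXD4 (2 and 0).

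Among the noncoding genes of the posterior HOXC region, HOXC13-AS and HOTAIR were higher in FOXP3 KO. HOXC13-AS, transcribed from the opposite strand of the HOXC13 start, was at 0.0584, 0 and 0.0263 CPM in untreated CT and 5.63, 2.78 and 5.59 CPM in untreated FOXP3 KO. Over each line it had 5 and 577 counts, and its log2 fold change was 7.05 (SE 0.61, adjusted p = 8.86e-06, edgeR quasi-likelihood test) without IFNγ and 5.73 (SE 0.73, adjusted p = 0.000149) with it, where it was 9.14 without CT library 13. HOTAIR, a long noncoding RNA known for its link to Polycomb complexes, lies opposite HOXC11 and had 1 count in CT and 45 in FOXP3 KO. Its log2 fold change was 4.04 (SE 1.27, adjusted p = 0.0321) without IFNγ and 5.85 (SE 1.55, adjusted p = 0.0207) with it in the same test, and the untreated call was lost with the replicate number as a block (adjusted p = 0.0925) and without FOXP3 KO library 12 (0.0508) or CT library 11 (0.076), 12 (0.0684) or 13 (0.0725, log2 fold change 5.42), and without FOXP3 KO library 11 it could not be tested. Under IFNγ it was lost without FOXP3 KO library 11 (0.0586) or 13 (0.0614) or CT library 13 (0.0722). HOXC-AS3, opposite HOXC10, had 0 and 10 counts, 3.13-fold higher in FOXP3 KO with CT set to the floor of 3 counts. It had too few counts for a test between the lines under either treatment. HOXC-AS1 had 0 and 1 counts and HOXC-AS2 had none. HOTAIRM1, a noncoding gene of the HOXA cluster known from myeloid cells, was at 2.12 ± 0.76 CPM in untreated CT and 1.16 ± 0.40 CPM in untreated FOXP3 KO (log2 fold change -0.83, SE 0.42, adjusted p = 0.16). Of the 18 noncoding genes listed for the clusters, 3 could be tested between the lines and 2, HOXC13-AS and HOTAIR, passed as higher with and without IFNγ, beside 13.2% and 14.0% of all genes.

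IFNγ changed no HOX gene past the threshold in either line. In CT, 0 of 11 tested HOX genes passed in edgeR's quasi-likelihood test, 0 had an unadjusted p under 0.05 and DESeq2 called 0. Of all 24416 genes tested, 5.35% were called in either direction, and 18.5% with the replicate number as a block. In FOXP3 KO, 0 of 15 passed, again with 0 at an unadjusted p under 0.05 and 0 by DESeq2. The background was 0.982% of 24131 genes, and 5.53% with the replicate block. HOXB7 had a log2 fold change of 0.30 (SE 0.33) with IFNγ in CT and 0.23 (SE 0.50) in FOXP3 KO. HOXC13 had -0.82 (SE 0.79) in CT (-2.08 without IFNγ-treated library 11, -0.37 without both libraries numbered 12) and 0.04 (SE 0.37) in FOXP3 KO, where its 352 and 372 counts made it the best measured of the 38 in that line. The largest value, picked out after it was seen, was that of HOXB6 in CT, 0.152 ± 0.215 CPM without and 0.503 ± 0.428 CPM with IFNγ (log2 fold change 2.08, SE 1.30, adjusted p = 0.462), and its groups overlapped. It was 1.27 without untreated CT library 13 and 4.44 without both CT libraries numbered 12, and HOXB6 could not be tested without IFNγ-treated library 13. At SEs of this size a change of 1 on the log2 scale was not detectable for most HOX genes. The test of whether the IFNγ response differs between the lines called 0 of 17 HOX genes with edgeR and 0 with DESeq2. Over all 27806 genes it called 0.111%, and 1.21% with the replicate block. HOXB2 was the only one of the 17 with an unadjusted p under 0.05 (0.0258, adjusted p = 0.733 in edgeR's quasi-likelihood test over 12 libraries), with 2 and 7 counts without and with IFNγ in CT and 12 and 3 in FOXP3 KO.

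Some partners of HOX proteins differed between the lines too. Of 8 TALE cofactors, all tested, 1 was higher and 3 lower in untreated FOXP3 KO (14.0% and 18.2% over all genes), with a median log2 fold change of -0.35 beside -0.02 over all genes. PKNOX2 had 17 and 15 counts in the CT groups and 0 in both FOXP3 KO groups (adjusted p = 0.0432 untreated and 0.0286 with IFNγ, edgeR quasi-likelihood test). The untreated value was 0.0607 with the replicate block, 0.0595 with DESeq2 and up to 0.108 without single libraries (FOXP3 KO 11, 12 or 13 or CT 13), and with IFNγ it was up to 0.0826 without FOXP3 KO library 11 or 13 or CT library 12. Without untreated CT library 11 or IFNγ-treated CT library 13 PKNOX2 could not be tested. MEIS2 was at 31.2 ± 2.5 CPM in untreated CT and 19.0 ± 1.7 CPM in untreated FOXP3 KO (log2 fold change -0.71, SE 0.14, adjusted p = 0.00251), and MEIS1 rose by 0.53 on the log2 scale (SE 0.18, adjusted p = 0.0389, 0.0985 without the filter, 0.0518 with all 12 libraries in 1 fit and between 0.0637 and 0.0803 without any single library except FOXP3 KO library 12). PBX2 fell by 0.34 on the log2 scale (SE 0.11, adjusted p = 0.0426, edgeR quasi-likelihood test), a call lost with RLE scaling (0.0561), no filter (0.0658), filterByExpr (0.0527) and DESeq2 (0.0619) and without any single library except FOXP3 KO library 12 (0.0621 to 0.168). With IFNγ only PKNOX2 of the 8 passed between the lines, as lower, beside 15.7% of all genes.

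**Figure D5:**
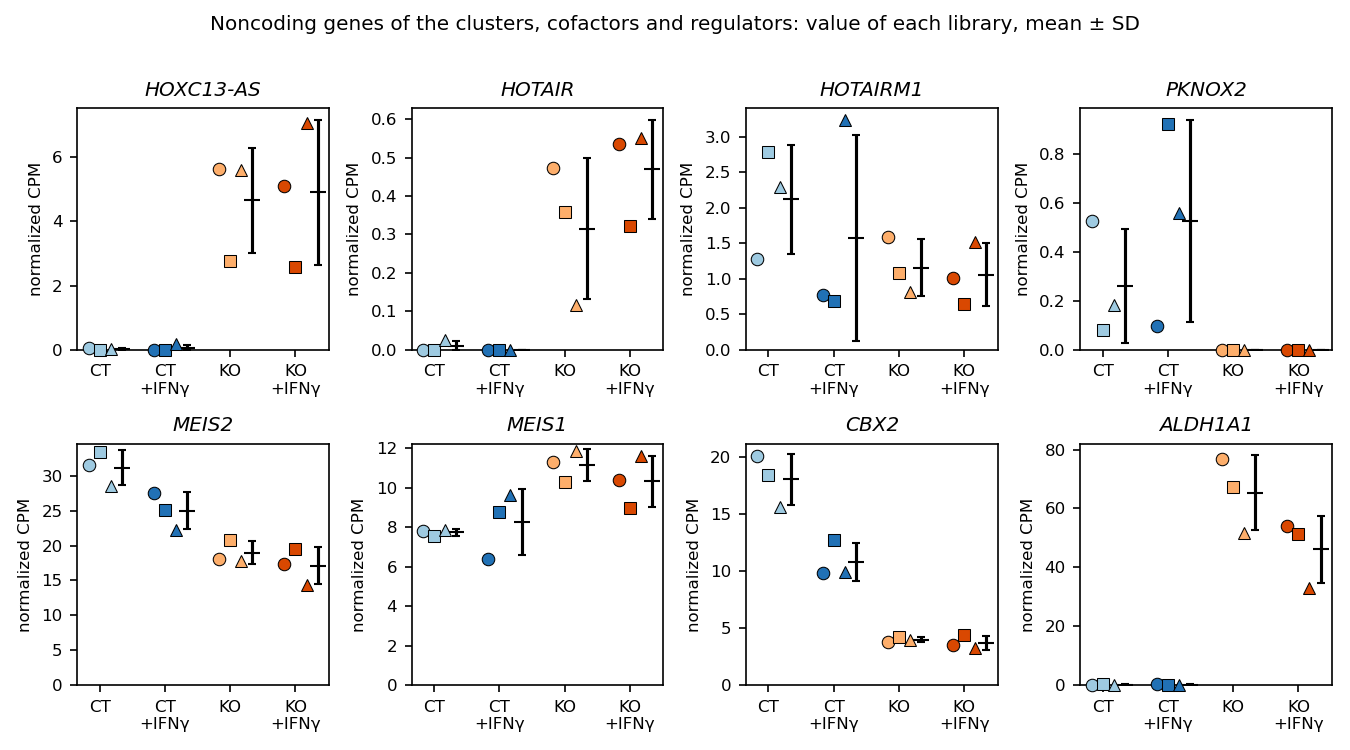
Points are the normalized CPM of single libraries (circle 11, square 12, triangle 13) with the mean ± SD of 3 libraries for 3 noncoding genes of the HOX clusters, 3 TALE cofactors, the Polycomb gene CBX2 and the retinoic acid enzyme ALDH1A1. HOXC13-AS, HOTAIR and ALDH1A1 are near 0 in CT and present in FOXP3 KO, PKNOX2 has no count in FOXP3 KO, and CBX2 and MEIS2 are lower in FOXP3 KO.

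Of 27 Polycomb genes, whose complexes hold HOX clusters silent, 3 were higher and 5 lower in untreated FOXP3 KO (median log2 fold change -0.18, all genes -0.02), and 2 were higher and 5 lower with IFNγ. These shares lie near those over all genes, which were 14.0% higher and 18.2% lower untreated and 13.2% and 15.7% with IFNγ. CBX2, a chromodomain subunit of the first Polycomb complex, was at 18.0 ± 2.3 CPM in untreated CT and 3.99 ± 0.21 CPM in untreated FOXP3 KO, a log2 fold change of -2.17 (SE 0.19, adjusted p = 8.92e-06, edgeR quasi-likelihood test). AEBP2, an accessory subunit of the EZH2 complex, rose by 2.005 (SE 0.158, adjusted p = 4.33e-06), PHC1, a subunit that lets Polycomb complexes cluster, rose by 1.55 (SE 0.18, adjusted p = 7.13e-05), and JARID2, which like AEBP2 is an accessory subunit of the EZH2 complex, fell by 0.87 (SE 0.10, adjusted p = 8e-05). Of 14 genes of the MLL complexes, DOT1L partners and H3K27 demethylases, which act against Polycomb silencing, 2 were higher and 2 lower in FOXP3 KO under each treatment, again near the shares over all genes. KMT2A, the methyltransferase that maintains HOX expression, fell by 0.74 on the log2 scale without IFNγ (SE 0.11, adjusted p = 0.000392, edgeR quasi-likelihood test). Of 19 CDX and retinoic acid genes, inducers of HOX expression in the embryo, 11 could be tested and 2 were higher and 3 lower in untreated FOXP3 KO, beside 14.0% and 18.2% of all genes. ALDH1A1, which makes retinoic acid, was at 0.127 ± 0.106 CPM in untreated CT and 65.4 ± 12.7 CPM in untreated FOXP3 KO (log2 fold change 9.41, SE 0.36, adjusted p = 2.88e-08, and 8.57 to 10.11 with 1 library left out), and ALDH1A3, which does so too, was at 1.16 ± 0.29 and 0.0430 ± 0.0745 CPM (-4.26, SE 0.83, adjusted p = 0.00254, and -7.50 without FOXP3 KO library 11).

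Markers of other cell types also differed with the line. The 6 fibroblast markers summed to 55.8 to 72.8 CPM in untreated CT and 471 to 703 CPM in untreated FOXP3 KO, all 6 with a count in every group, and of them COL1A2, DCN and LUM were higher and COL1A1 and THY1 lower in untreated FOXP3 KO (14.0% and 18.2% over all genes). The 8 immune markers summed to 3.68 to 5.48 CPM and 102 to 233 CPM, of which CSF1R made up nearly all in FOXP3 KO, while the pan-leukocyte marker PTPRC stood at 0.803 ± 0.568 CPM in untreated CT and 0.165 ± 0.101 CPM in untreated FOXP3 KO. The 5 endothelial markers summed to 6.02 to 9.38 CPM in untreated CT and 1.42 to 5.19 CPM in untreated FOXP3 KO, with no overlap, and to 2.40 to 3.01 and 0.603 to 4.38 CPM with IFNγ, where the lines overlapped. Of the 5, all tested, 1 (PECAM1) was called lower in FOXP3 KO untreated and 2 (PECAM1 and KDR) with IFNγ. Over all genes 18.2% and 15.7% were lower. CDH5 went the other way with IFNγ without passing (log2 fold change 5.31, SE 2.02, adjusted p = 0.0816, edgeR quasi-likelihood test). The part of these differences in the HOX values was not tested, and in bulk RNA fewer cells with a gene and less RNA per cell cannot be told apart.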

How the data were processed

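RNA-seq libraries of HT1376 CT and FOXP3 KO cells were prepared by the authors from total RNA after ribosomal depletion and aligned with STAR 2.7.11a to hg38, and reads per Ensembl gene (release 103) were counted with htseq-count. The deposited values are raw read counts, and all 12 columns were used. Strand setting and treatment of overlapping genes are not given in the sources used here, and reads shared by overlapping HOX genes may be lost or misassigned. Rows with an Ensembl identifier but no name (2701 rows, 0.11% of counts) stayed in the table fitted.

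Genes with at least 10 counts over the libraries of a comparison were tested with edgeR 4.0.16 (R 4.3.3; TMM, glmQLFit, glmQLFTest), 3 libraries per group, and p-values were adjusted by Benjamini-Hochberg over all genes tested. The interaction was fitted over 12 libraries. DESeq2 1.42.0, other filters, scalings and fits and the omission of single libraries were alternatives. The code was tested on simulated data. Exon lengths and positions came from GENCODE 44 (GRCh38). Intervals of count ratios are exact binomial intervals at 95%. The floor was 3 counts. Intervals cover counting error only. A floor stands in for the group without a count and leaves out the counting error of the other group.

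Same-numbered libraries of the lines under one treatment deviated together from their group means (correlations 0.109 to 0.274 over 17605 genes, 6 pairs), as did those within a line (0.273 to 0.464). Differently numbered libraries ran from -0.228 to 0.117 between the lines (24 pairs over all treatments), so the ranges between the lines overlapped. Within a line they ran from -0.362 to 0.007. The numbers were therefore treated as pairing the libraries, but the main fits carry no replicate block, so their p-values ignore the pairing. The block was run as an alternative, and a blocked value is given where it changes a call.

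Values per library are given for HOX genes past the threshold in a comparison of the lines. Levels are given for the 6 highest of the 38 per kb in untreated CT. Listed genes are given by count, and some of them are named, including genes that were not called or not tested. The lists cover TALE cofactors, Polycomb, MLL, CDX and retinoic acid genes, noncoding genes and neighbours of the clusters and cell type markers. Some genes of the rule and lists are not reported here and stay out of the counts and sums over them, but were in every fit. Members and lists were chosen with earlier results of these data known.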

Additional observations from a re-analysis of the deposited data

How the results depend on the processing

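Of the 188 refits of the 7 called HOX genes between the lines, 142 kept the side of the threshold, 41 lost it, 5 gained it and none changed direction. HOXC13 passed in all of its refits, including those without replicate 12, an alternative added after seeing the data. Without IFNγ, 7 HOX genes were called with RLE scaling, without the filter, with bias-adjusted deviance and with all 12 libraries in 1 fit, 5 with DESeq2, 5 with the replicate block, 4 with filterByExpr (which left 4 HOX genes to test), 4 without replicate 12 and 4 at an absolute log2 fold change over 2, and between 1 and 4 with libraries left out. With IFNγ the count was 3 with RLE, DESeq2 and the block, 2 with filterByExpr, 4 with all libraries in 1 fit, 5 with bias-adjusted deviance (HOXA5 and HOXC8 added), 2 at a fold change over 2 and between 1 and 3 with libraries left out. The replicate block ended the untreated calls of HOXC10, HOXB13, HOTAIR and PKNOX2 and no other HOX call. For each of these the cause was not tested.

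IFNγ and its interaction with the line called 0 HOX genes under every setting run, and some of their log2 fold changes changed sign. These were not only values near 0, since they included the interactions of HOXC10 (-0.77, SE 1.54) and HOXB13 (-0.85, SE 1.61). With libraries left out, the IFNγ effect in CT ran from -0.56 to 0.044 for HOXC8, and in FOXP3 KO from -1.002 to 0.10 for HOXA5, -0.031 to 0.90 for HOXB7, -0.57 to 0.71 for HOXC10 and -0.26 to 0.25 for HOXC13. The interaction ran from -0.41 to 1.45 for HOXA5, -0.26 to 0.65 for HOXB7, -1.85 to 0.19 for HOXB13, -0.40 to 0.25 for HOXC8 and -2.76 to 2.38 for HOXC10. With bias-adjusted deviance HOXC10 had -0.18 with IFNγ in FOXP3 KO and HOXB7 an interaction of 0.063, which was 0.011 with the replicate block. The cause of these sign changes was not tested. Low counts limit these values: 21 of 38 HOX genes had fewer than 10 counts in all, and a summed cluster level stayed within 1 SD under RLE scaling.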

Other observations

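Among genes that flank the HOX clusters without being HOX genes, 11 of 17 listed could be tested between the untreated lines, and 2 were higher and 2 lower in FOXP3 KO (14.0% and 18.2% over all genes), with a median log2 fold change of 0.10 beside -0.02 over all genes. With IFNγ 12 could be tested, and 3 were higher and 2 lower (13.2% and 15.7% over all genes). ATP5MC2, beyond the HOXC13 end of HOXC, and SMUG1, beyond the HOXC4 end, were higher by 0.54 (SE 0.12) and 0.52 (SE 0.14) on the log2 scale without IFNγ, and TAX1BP1 and HIBADH, which lie beyond the HOXA13 end of HOXA, fell by 0.40 (SE 0.10) and 0.45 (SE 0.13). The calls of SMUG1 (adjusted p = 0.0501) and TAX1BP1 (0.0607) were lost without FOXP3 KO library 11, and that of HIBADH without FOXP3 KO library 11 (0.0671) or 12 (0.0555) or CT library 11 (0.0875) or 13 (0.0506), in edgeR's quasi-likelihood test.

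With IFNγ in CT, 3 of the 27 Polycomb genes were higher and 2 lower and 1 of the 8 TALE cofactors was lower. Of all genes, 5.35% were called in either direction in the same fit, and 18.5% with the replicate block. In FOXP3 KO 1 Polycomb gene was higher, beside 0.982% of all genes in the same fit and 5.53% with the replicate block. PCGF5, a subunit of a variant Polycomb complex, rose by 1.58 on the log2 scale in CT (SE 0.18, adjusted p = 0.000242, edgeR quasi-likelihood test) and by 0.88 in FOXP3 KO (SE 0.11, adjusted p = 0.00324). PBX3 fell by 0.74 in CT (SE 0.15, adjusted p = 0.0145, but 0.0504 or 0.0556 without untreated CT library 11 or 12 and 0.0667 without IFNγ-treated CT library 13) and had a log2 fold change of -0.27 in FOXP3 KO (SE 0.12, adjusted p = 0.897).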
